A study of Sus scrofa with 2 samples.

Results

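The heat shock protein genes HSP70.2, HSPB1 and HSP90AA1 were compared between ovarian tissue of conventional pigs and minipigs. They were chosen for opposite directions on the arrays, so their differences are a description and no test was made of them. The members were found as the probes, other than controls, whose transcript accession belongs to one of these genes in the pig annotation. This gave 10 probes for the 3 genes, out of 2459 genes that could be named on the array. HSP70.2 (accession NM_213766) had 2 probes, HSPB1 (NM_001007518) had 2 and HSP90AA1 (NM_213973) had 6.

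RNA from ovarian tissue, from which the corpora lutea had been removed, was taken on day 15 of the cycle and hybridised in Cy3 to single-colour porcine Agilent arrays. There was 1 array for the conventional pigs, which were Yorkshire sows, and 1 for the minipigs, which were Midget pigs. Animals of both breeds were 10 months old and cycling, and no treatment separated the groups. Ovaries were collected from 5 animals of each breed, and it is not given in the sources used here whether their RNA was pooled for hybridisation. With 1 array per breed there was no replicate check on any difference, and the number of arrays limits the precision of every value. In bulk tissue, fewer cells of a type and less RNA per cell cannot be told apart.

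Heat shock proteins are molecular chaperones, which bind unfolded or partly folded proteins and keep them from aggregating. HSP70 and HSP90 proteins use ATP to fold client proteins, with cochaperones that load and release the clients, while small heat shock proteins hold unfolded proteins without ATP. Heat shock factor HSF1 induces several of these genes under heat, oxidative stress and other stress. In steroid-producing tissue, HSP90 is also known for holding steroid hormone receptors ready to bind their hormone.

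The intensity of each spot was corrected for background by the scanner software, converted to log2 and set to zero at the 75th percentile of its array. All differences are conventional pig minus minipig by the breed labels of the scanner files. A second deposited table of log2 values gives the breeds the other way round. Its minipig column follows the scanner intensities of the array labelled conventional pig to within 0.025 after a constant is subtracted, and its conventional pig column follows the minipig array to within 0.0072. By the labels of that table every direction below is therefore exchanged, and "minipig array" and "conventional array" mean the arrays that the scanner files label as minipig and as conventional pig.

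HSP70.2 was higher on the minipig array, HSPB1 was higher on the conventional array, and HSP90AA1 was at nearly the same level on both. The median log2 difference over the probes was -2.84 for HSP70.2, which is 7.17-fold higher on the minipig array. It was 2.35 for HSPB1, or 5.08-fold higher on the conventional array. It was -0.0011 for HSP90AA1. The opposite directions were thus those of HSP70.2 and HSPB1, and HSP90AA1 showed no direction beyond the spread between spots.

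**Figure D1:**
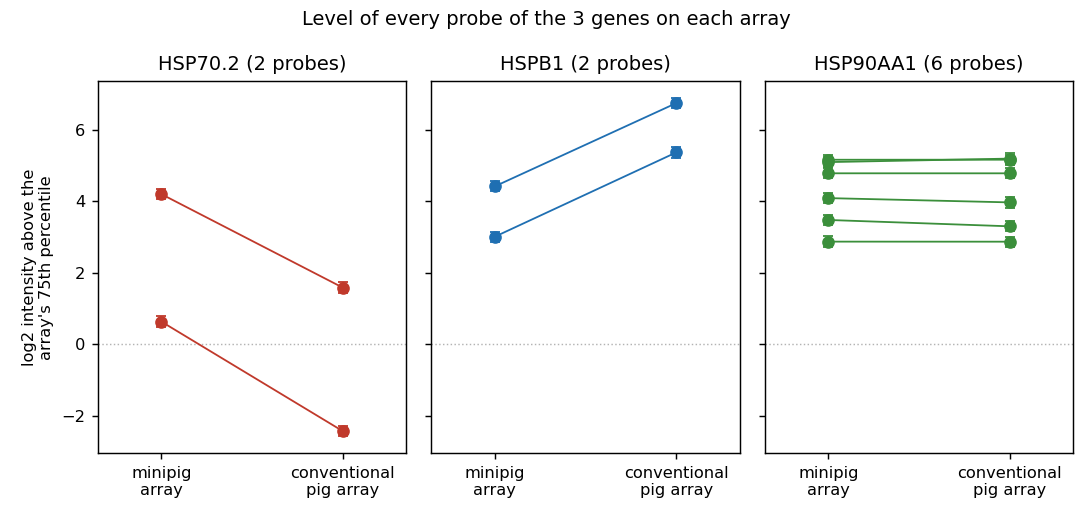
Log2 intensity above the array's 75th percentile on the vertical axis for each probe of HSP70.2, HSPB1 and HSP90AA1, on the minipig array (left) and the conventional array (right) of each panel. Lines join the values of 1 probe and error bars are the error that Feature Extraction gives for the spot. Both HSP70.2 probes run down from the minipig array, by 3.07 and 2.62, both HSPB1 probes run up, by 2.33 and 2.36, and the 6 HSP90AA1 probes are nearly level.

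HSP70.2 encodes a stress-inducible cytosolic HSP70, and the pig annotation gives HSPA1A and HSPA1B as its other names. Its brighter probe, A_72_P088236, had a processed intensity of 9077 ± 908 on the minipig array against 1534 ± 153 on the conventional array, where the error is that given by Feature Extraction for the spot. Its log2 level above the 75th percentile was 4.20 on the minipig array against 1.58 on the conventional array, a difference of -2.62. The dimmer probe, A_72_P015686, had an intensity of 765 ± 76.5 on the minipig array against 94.7 ± 9.82 on the conventional array. Its log2 level was 0.63 on the minipig array against -2.44 on the conventional array, a difference of -3.07. Both probes were thus lower on the conventional array, by 6.14-fold for the brighter and 8.38-fold for the dimmer.

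The dim value of A_72_P015686 on the conventional array was the one closest to background among the members. Its uncorrected spot signal there was 140.5 against a local background of 28.0, or 5.02 times the background, and the spot still carried the flag for being well above background. On the minipig array the same spot read 968 against 26.0. Before any centring, the uncorrected signals of this probe differed by 6.89-fold and the corrected intensities by 8.08-fold, both higher on the minipig array. For A_72_P088236 the same ratios were 6.02-fold and 5.92-fold. The correction therefore widened the gap at the dim probe and hardly moved it at the bright one.

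HSPB1 encodes HSP27, a small heat shock protein that holds unfolded proteins and binds the actin cytoskeleton. Probe A_72_P088101 had a processed intensity of 10559 ± 1056 on the minipig array against 55089.7 ± 5509 on the conventional array. The log2 level was 4.42 on the minipig array against 6.75 on the conventional array, a difference of 2.33. Probe A_72_P679687 had an intensity of 3973 ± 397 on the minipig array against 21162 ± 2116 on the conventional array, and its log2 level went from 3.01 on the former to 5.37 on the latter, a difference of 2.36. Both probes were higher on the conventional array by nearly the same factor, 5.03-fold and 5.13-fold. No spot was saturated on either array, and the spot signals of HSPB1 on the minipig array were 521 and 198 times the local background.

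HSP90AA1 encodes the inducible cytosolic HSP90, which matures kinases and steroid receptors. Its 6 probes had processed intensities from 3611 to 17689.6 on the minipig array and from 3742 to 18764 on the conventional array. The brightest were A_72_P683318, at 17689.6 ± 1769 on the minipig array against 18369 ± 1837 on the conventional array, and A_72_P700356, at 16901 ± 1690 against 18764 ± 1876 in the same order. A_72_P232852 read 13599 ± 1360 against 14103 ± 1410, and A_72_P525187 read 8401 ± 840 against 8022 ± 802. The dimmest were A_72_P669304, at 5498 ± 550 against 5042 ± 504, and A_72_P634756, at 3611 ± 361 against 3742 ± 374. On each probe the intensities of both arrays thus lay close together, at every brightness.

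After centring, the log2 differences of the HSP90AA1 probes were -0.18 (A_72_P669304), -0.12 (A_72_P525187), -0.0017 (A_72_P634756), -0.00046 (A_72_P232852), 0.0014 (A_72_P683318) and 0.098 (A_72_P700356). Of these probes, 2 had the higher value on the conventional array and the other 4 on the minipig array, with none past 2-fold. The mean over the probes was -0.033 ± 0.099 (SD over 6 probes of 1 gene, which are not replicates of the breeds). The intensities of the 6 probes therefore differed between the arrays by less than the error of single spots.

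The spread between spots gave a scale for these differences. Over 42 probes with repeated spots, all flagged as well above background on each array, a difference between 2 single spots had an SD of 0.25 on the log2 scale. None of the member probes was printed more than once. The error that Feature Extraction gives for a spot was close to 10.0% of the intensity for most member probes, which amounts to 0.20 on the log2 difference. The differences of HSP70.2 and HSPB1 were many times these errors, and those of all 6 HSP90AA1 probes were below 0.25 in size. These errors cover spots within an array, and not labelling, hybridisation, differences between arrays or the animals. HSP70.2 and HSPB1 were chosen for their opposite directions, so their size against these errors is no test.

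The probes of a gene gave a further measure. The gap between the differences of the HSPB1 probes was 0.030, and that of the HSP70.2 probes was 0.45. Among 608 genes that had exactly 2 probes, all well above background on both arrays, the median gap was 0.27 and the 75th percentile was 0.49. The gap of HSPB1 was among the smallest 8.72% of these genes, and 70.9% had a gap no larger than that of HSP70.2. The HSP70.2 probes thus agreed in direction, and their sizes differed by about as much as those of many other genes.

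The probes printed around the member spots were also measured. Each member spot had at least 94 other probes within 5 rows and columns that were well above background in both breeds. Their median log2 difference was -0.066 and -0.059 around the HSP70.2 spots. Around the HSPB1 spots it was 0.016 and 0.12. Around the HSP90AA1 spots it ran from -0.14 to 0.058.

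A comparison of genes within an array does not depend on the constant subtracted from that array. Relative to HSP70.2, HSPB1 was 36.4-fold higher on the conventional array than on the minipig array, a log2 value of 5.19. The 4 pairs of an HSPB1 and an HSP70.2 probe gave 4.95 to 5.43. Relative to HSP90AA1, HSPB1 stood 2.35 higher on the log2 scale on the conventional array, and HSP70.2 stood 2.84 lower. The 12 pairs of an HSPB1 and an HSP90AA1 probe gave 2.23 to 2.54, and the 12 pairs of an HSP90AA1 and an HSP70.2 probe gave 2.44 to 3.16. The genes were chosen for opposite directions on these arrays, so the ratios follow from that choice and describe its size.

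Set against all genes, the members lay in both tails and in the middle. Of 2363 genes with a value, 277 (11.7%) passed 2-fold toward the conventional array and 188 (7.96%) toward the minipig array. Both probes of HSPB1 passed it toward the former, as did 7.48% of all probes with a value, and both of HSP70.2 toward the latter, as did 8.94%. HSP70.2 had the 18th lowest difference, counted from the gene most in favour of the minipig array, and HSPB1 had the 50th highest. HSP90AA1 lay at percentile 47.4. The middle of the distribution was near 0, with a median of 0.037 and quartiles of -0.36 and 0.55. Since the members were chosen on this contrast, nothing is read from their places.

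**Figure D2:**
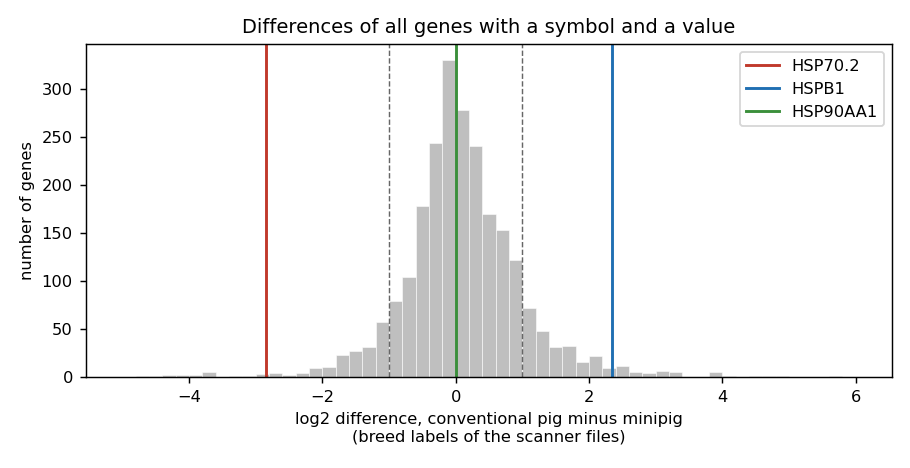
Number of genes (vertical axis) by log2 difference, conventional pig minus minipig by the scanner labels (horizontal axis), for the 2363 genes with a symbol and a value, with dashed lines at 2-fold. Coloured lines mark HSP70.2 at -2.84, HSP90AA1 at -0.0011 and HSPB1 at 2.35, so HSP70.2 and HSPB1 stand in opposite tails and HSP90AA1 in the middle.

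Other chaperone genes were taken from 9 lists. Of 140 listed names, 25 had a value, or 17.9%, so these genes describe only themselves and not the chaperone system. Of the 25, 5 passed 2-fold toward the conventional array and 2 toward the minipig array, with the shares over all genes being 11.7% and 7.96%. These counts depended on the processing, with 1 toward the conventional array after quantile and 3 after loess normalization, and 1 toward the minipig array after normexp correction. Without the 3 members, 22 genes remained, of which 4 and 1 were past 2-fold in the same order. The median log2 difference of these 22 was 0.0077, beside 0.037 over all genes, and 15 of them differed by less than 1.3-fold, against 44.5% of all genes. Most of the measured chaperone genes were thus close to the same level on both arrays, as HSP90AA1 was.

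In the HSP70 family, 5 of 17 listed names had a value, among which HSPA1A and HSPA1B are other names of HSP70.2 itself. HSPA6, another stress-inducible HSP70, had a log2 difference of -1.33 from 1 probe, on the same side as HSP70.2. It was past 2-fold here but not after normexp background correction, which took it to -0.78, nor with uncorrected spot signals. HSPH1, a nucleotide exchange factor of HSP70, was at -0.16, with probes from -0.20 to -0.13. HSPA1L, an HSP70 known mainly from testis, was at -0.053 from 1 probe, and this sign turned under median centring, quantile and loess normalization and normexp correction. HSPA13, a microsomal HSP70-like protein, went the other way at 1.16, with all 3 probes between 1.07 and 1.33, and at 0.98 after quantile normalization. HSP70 genes resemble each other closely, and binding of one gene's transcript by another's probe was not tested.

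The protein-coding genes next to HSP70.2 in the pig annotation ran both ways. HSPA1L is its neighbour on one side and was at -0.053. On the other side lies NEU1, a lysosomal sialidase, which was higher on the conventional array at 1.76 from 1 probe. The next genes outward were LSM2, an RNA-binding protein of mRNA decay and splicing, at -0.38, and SLC44A4, a choline transporter family member, at 0.47. Beyond SLC44A4 lie EHMT2, a histone methyltransferase, at -0.94 from 2 probes, and ZBTB12, a zinc finger protein, at -0.97 from 1 probe, both on the side of HSP70.2. EHMT2 was past 2-fold after quantile normalization, at -1.04, and ZBTB12 ran from -1.40 to -0.24 over the alternatives. Of these 6 neighbours, NEU1 alone was past 2-fold here.

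In the HSP90 family, 2 of 4 genes had a value. HSP90B1, the endoplasmic reticulum form known as GRP94, was at 0.36, with 8 probes from 0.15 to 0.65. Both HSP90 genes therefore differed by less than 1.3-fold between the arrays in this processing. For HSP90B1 this depended on it, at 0.52 after median centring, 0.65 with the brightest probe and 0.028 after quantile normalization. HSP90AB1, HSPA8 and HSF1 had no probe with a matched accession and were not analysed here. Of the 19 listed HSP90 cochaperones, 5 had a value, and all 5 were within 1.3-fold. CDC37, which brings kinases to HSP90, was at 0.32 (0.48 after median centring, past 1.3-fold), and PTGES3, the p23 protein of the steroid receptor complex, was at -0.019. CHORDC1 was at -0.093, and the muscle cochaperones ITGB1BP2 and UNC45B were at -0.035 and 0.034. Each of these rested on 1 probe, and the signs of CHORDC1, PTGES3, ITGB1BP2 and UNC45B depended on the processing.

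Among small heat shock proteins, 2 of 10 had a value. HSPB8, which works with BAG3 in clearing misfolded proteins, was at -0.10, with its 5 probes from -0.45 to 0.13, and its sign turned under median centring. HSPB1 and HSPB8 were thus unlike each other, as HSP70.2 and HSPA1L were.

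Of the cochaperones of HSP70, few were measured. DNAJB12, a J protein of the endoplasmic reticulum membrane, was at -0.11 (0.040 after median centring), and DNAJA4 was at 0.062. Their probes ran from -0.25 to 0.03 and from -0.18 to 0.31, so each pair gave both signs. BAG6, which holds hydrophobic proteins before membrane insertion or degradation, was at -0.091, with probes from -0.38 to 0.12, and at 0.063 after median centring. DNAJC6 was not well above background in either breed. HSPE1, the mitochondrial HSP10 that caps the HSP60 chaperonin, was at 0.38, with its 4 probes from 0.27 to 0.54, and at -0.0090 after quantile normalization. HSBP1, which binds heat shock factor HSF1 and is known to hold it back, was at 1.19 from 1 probe, and was below 2-fold under quantile and loess normalization, at 0.94 and 0.98.

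Chaperones and stress factors of the endoplasmic reticulum had values for 6 of 21 genes. Of these, 2 passed 2-fold toward the conventional array and 0 toward the minipig array, with shares of 11.7% and 7.96% over all genes. XBP1, a transcription factor of the unfolded protein response, was at 1.12, with its 6 probes from 1.07 to 1.38. ERP44, which retains unassembled secretory proteins, was at 1.05, and the calcium-binding chaperone CALR at 0.95, each from 1 probe. ATF4, the transcription factor of the integrated stress response, was at -0.14 with 6 probes from -0.33 to 0.12, and at 0.011 after median centring. Its target DDIT3 was at -0.37 and the oxidase ERO1A at 0.037. Under quantile normalization none of these genes was past 2-fold, with XBP1 at 0.85. After loess normalization 1 was (ERP44), as after normexp correction or with uncorrected signals (XBP1), and after median centring 3 were.

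**Figure D3:**
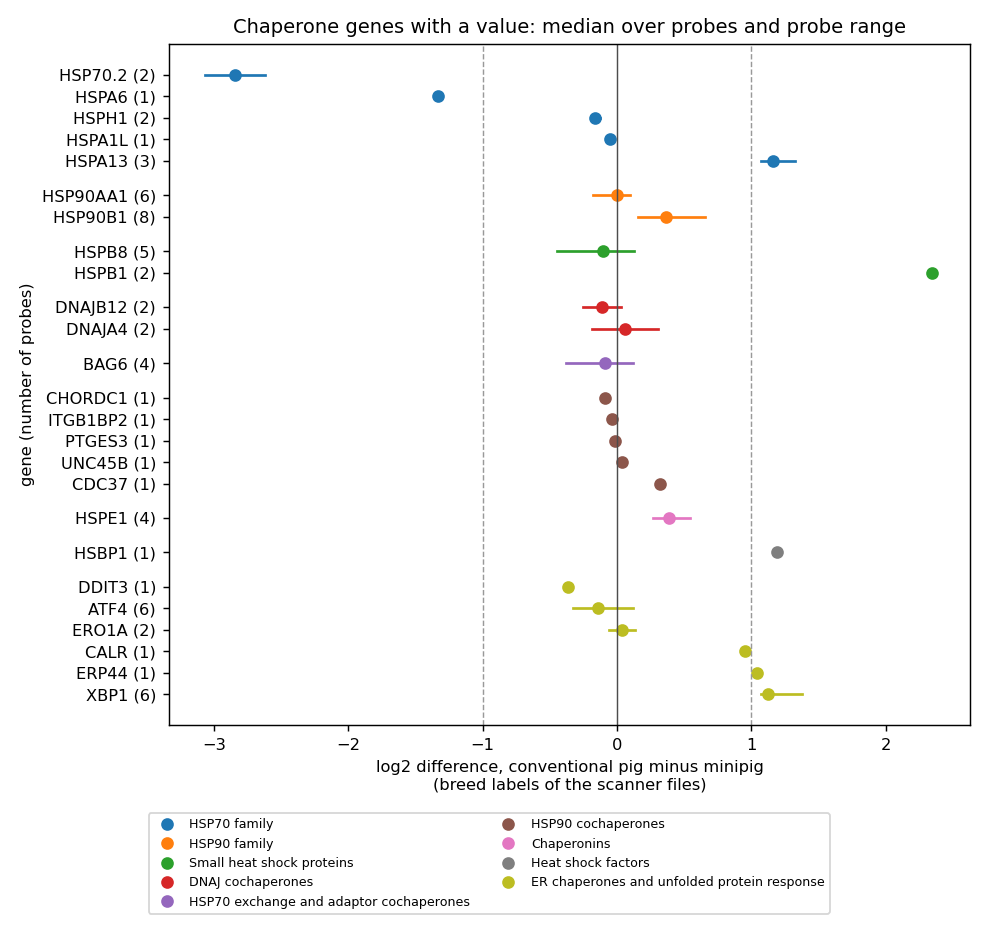
Log2 difference, conventional pig minus minipig by the scanner labels (horizontal axis), for the 25 chaperone genes with a value (vertical axis, with their number of probes), coloured by list. Points are medians over probes, bars run from the lowest to the highest probe, and dashed lines mark 2-fold. HSP70.2 and HSPA6 stand left of the dashed lines, HSPB1, HSPA13, HSBP1, XBP1 and ERP44 stand right of them, and the others, HSP90AA1 included, lie between.

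The genes nearest to each member by level on both arrays were sought among 1159 other genes with at least 2 probes, all flagged as well above background on each array. Likeness was the distance between log2 levels over the 2 arrays, so a near gene has a similar log2 difference by construction. The level of HSP70.2 is the median of 2 probes far apart, at 4.20 and 0.63 on the minipig array, and matches neither probe. Nearest to HSP70.2 was INHA, the inhibin alpha subunit of granulosa cells, at a distance of 0.42. INHA had a log2 difference of -2.61, the median of probes that lay apart at -3.19 and -2.04. It was followed by HTT at 0.82 and by DES, the intermediate filament of muscle cells, at 0.84, but the 3 probes of HTT disagreed, from -1.74 to 0.21. Nearest to HSPB1 were SAT1 (distance 0.47), which acetylates polyamines, RPN2 (0.51), a subunit of the oligosaccharyltransferase, and RDH11 (0.55), a retinal reductase. Their log2 differences were 1.84, 1.75 and 2.22. Nearest to HSP90AA1 were MGST1 (0.14), a membrane glutathione transferase, SULT1A3 (0.24), a sulfotransferase, and ITM2B (0.35), with log2 differences of 0.14, -0.30 and 0.35. Those of MGST1 and ITM2B turned to -0.22 and -0.027 after quantile normalization.

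Other gene groups also differed between the arrays, and their part in the differences of HSP70.2 and HSPB1 was not tested. Of all 2363 measured genes, 1123 were on the side of the minipig array (7.96% of all genes past 2-fold) and 1240 on that of the conventional array (11.7% of all genes past 2-fold). Of 9 immediate early genes with a value, of 19 listed, 8 were higher on the minipig array and 5 of them at least 2-fold (4 after median centring, quantile or loess normalization or normexp correction). JUN was at -3.76 and FOS at -1.98, on the side of HSP70.2, while IER3 was at 1.13, each from 1 probe. BTG2 was at -2.07 from 2 probes, also on the side of HSP70.2. Granulosa markers, 10 of 17 with a value, had a median level of 2.01 on the minipig array against 0.32 on the conventional array, with 9 higher on the former (8 after median centring, quantile or loess normalization), and their median log2 difference was -1.03. Of these 10, 6 were past 2-fold toward the minipig array and 0 toward the conventional array. The 6 became 4 after median centring, and 5 after normexp correction, with uncorrected signals or with the brightest probe. All 7 oocyte markers with a value, of 15, were higher on the minipig array (6 after normexp correction, with uncorrected signals or with the brightest probe), with median levels of -1.57 on it and -2.16 on the conventional array and a median log2 difference of -0.92. Luteal markers, 15 of 16 with a value, had a median level of 2.73 on the minipig array against 3.71 on the conventional array, with 12 higher on the latter, the side of HSPB1, and a median log2 difference of 1.16. Of these 15, 8 were past 2-fold toward the conventional array (7 after quantile or loess normalization) and 0 toward the minipig array. Theca markers (6 of 11) were split by sign, with 3 higher on each array (2 on the conventional and 4 on the minipig array after quantile or loess normalization or with the brightest probe). They were INSL3 at -3.76 (from 1 probe), CYP17A1 at -1.74, LHCGR at -0.62, NR5A1 at 0.023, ACTA2 at 0.099 and STAR at 3.07. STAR and LHCGR were also among the luteal markers, and ACTA2 was among the smooth muscle markers. Of 5 smooth muscle markers with a value, of 12, 3 were higher on the minipig array (5 after quantile and 4 after loess normalization), with DES at -1.998, CNN1 at -1.32 and ACTA2 at 0.099. All 4 measured endothelium markers, of 11, were higher on the conventional array and none was past 2-fold (1 after median centring, quantile or loess normalization). Of 6 immune markers with a value, of 12, 3 were higher on each array, and 4 were higher on the conventional array after quantile or loess normalization and 2 with the brightest probe. None of the 8 listed erythrocyte markers had a value. The ovarian markers FSHR and INHA of granulosa cells, INSL3 of theca cells, and ZP2, ZP3 and ZP4 of oocytes were well above background on both arrays.

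The directions of HSP70.2 and HSPB1 were the same under every scaling and filter of the scanner intensities. Over 8 such alternatives HSP70.2 lay between -2.97 and -2.62 and HSPB1 between 2.03 and 2.50. Every member probe was well above background on both arrays, so keeping or dropping dim probes could not change these values. Median centring only shifted all genes by the same amount. HSP90AA1 lay between -0.35 and 0.15 and changed sign with the scaling, so it has no direction. The deposited log2 table lists both probes of HSP70.2 and both of HSPB1 with the breeds exchanged, and 0 of the 6 probes of HSP90AA1. Its size is that of the paper's 2-fold cutoff, and none of these 6 probes was past 2-fold.

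**Figure D4:**
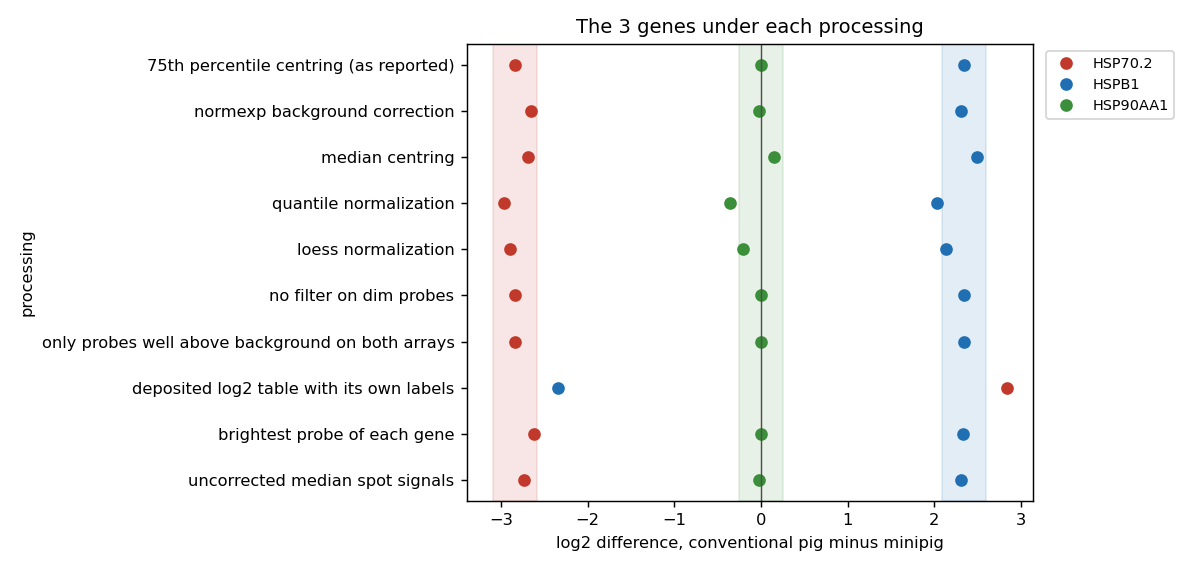
Log2 difference, conventional pig minus minipig (horizontal axis), of HSP70.2, HSPB1 and HSP90AA1 under each processing (vertical axis). Shaded bands are the reported value ± 0.25, the SD of a difference between single spots. All points from scanner intensities keep their side for HSP70.2 and HSPB1, the deposited table with its own labels has them exchanged and holds no HSP90AA1 probe, and HSP90AA1 lies between -0.35 and 0.15.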

How the data were processed

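The authors scanned the arrays and ran Agilent Feature Extraction 10.7.3.1, and deposited its spot intensities, which are background-corrected but not normalized between arrays. They also deposited log2 values for 5617 probes, as many as the paper counts past its 2-fold cutoff in both directions together. All genes of the lists used here that had a value among these probes were past 2-fold. Control spots and outlier spots (5 on the minipig array, 10 on the conventional array) were left out, which left 43597 probes, of which 88.1% and 85.2% were well above background. Log2 intensities were averaged over repeated spots and centred on the 75th percentile of the array. A probe well above background on 1 array only gave a bound against the lowest such intensity on the other. A gene's value is the median over its probes. Transcript accessions were matched without versions to RefSeq of Sscrofa11.1, which named 5577 probes (12.8%). Its coordinates were used only to see which genes are neighbours.

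Members and lists were chosen with earlier results of these data known. The text names the members, all 25 chaperone genes with a value and the 3 genes nearest to each member. Single markers, and the naming of the genes within 4 places of HSP70.2 that had a value, were chosen after their values were seen. With 1 array per breed no test was run. Normexp correction, planned on mean spot signals, used median ones. Steps were tested on simulated data. Software was Python 3.11.15, numpy 2.4.6, pandas 2.3.3, statsmodels 0.14.6, matplotlib 3.10.9, R 4.3.3 and limma 3.58.1.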

Additional observations from a re-analysis of the deposited data

How the results depend on the processing

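The alternatives were normexp correction (offset 50), median centring, quantile and loess normalization (span 0.3), dim probes kept, dim probes dropped, the deposited log2 table, the brightest probe of each gene and, chosen after seeing the data, uncorrected spot signals. In the deposited table with its own labels, HSP70.2 was at 2.85 and HSPB1 at -2.34, which exchanges their directions, because the table assigns the arrays to the opposite breeds. The table holds no probe of HSP90AA1. Quantile normalization took HSPB1 to 2.03 and HSP90AA1 to -0.35, a shift of more than the 0.25 between single spots. All other values of the members moved by less. The median difference of all genes was 0.037, against 0.19 after median centring, 0.11 after quantile and 0.12 after loess normalization. The number of chaperone genes past 2-fold toward the conventional array was 5, but 1 after quantile and 3 after loess normalization. The number toward the minipig array was 2, but 1 after normexp correction or with uncorrected signals, where HSPA6 was no longer past 2-fold. The deposited table held 7 chaperone genes, by its labels 2 past 2-fold toward the conventional pig and 5 toward the minipig. All its genes from the lists were past 2-fold, so these counts were fixed by which probes it holds and cannot be compared with the others. No paired analysis was possible because each breed had 1 array. Only A_72_P015686 on the conventional array came near background among the members.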
